A study of Arabidopsis thaliana with 12 samples.

Results

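Among the 34133 identifiers measured in leaves of Arabidopsis thaliana, 57 were high in the accession Per-1 alone. They were chosen by value: the lower of the 2 Per-1 libraries had to reach at least 3 FPKM and at least 3 times the highest of the 4 Col-0 and 2 Aa-0 libraries. FPKM counts sequenced fragments corrected for transcript length and library size, so that levels can be compared between genes. These thresholds were met by 62 identifiers, and 8 identifiers were left out by name, 5 of which had met them. The height of the 57 genes in Per-1 over Col-0 and Aa-0 is therefore a description and was not tested. Neither hybrid was used to choose them.

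The RNA came from first leaves of seedlings aged 14 days, kept on Murashige and Skoog medium with 1% sucrose. The groups were the hybrid Col-0×Per-1 (2 libraries), its parent Per-1 (2), the hybrid Col-0×Aa-0 (2), its parent Aa-0 (2) and Col-0 (4), the parent that both hybrids share. Col-0, Aa-0 and Per-1 are natural accessions, which are inbred lines from wild populations, and Col-0 is the accession of the reference genome. Neither the mother of each cross nor the plants behind the libraries of a group are given by the labels. The spread that enters the p-values may therefore be technical.

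Natural accessions of Arabidopsis differ in which genes they carry and in how strongly each gene is expressed, and pseudogenes, F-box proteins, immune receptors and transposon-derived sequences are known to be among the most variable. A hybrid receives an allele of every gene from each parent. If both alleles are expressed as in the parents, its level lies at the mean of the parents, called the mid-parent. Hybrids between accessions are studied because some outgrow their parents, which is called heterosis.

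Each library listed between 20772 and 21781 identifiers above 0. The absolute depth is unknown, since the files give FPKM and no counts. From the steps between low values, the shallowest library was Col-0×Per-1 replicate 2, at 0.64 of the depth of Col-0 replicate 1, and the deepest were Col-0×Aa-0 replicate 2 and Col-0 replicate 4, at 1.14. The 8 leaf mesophyll markers summed to between 42210 and 66580 FPKM, while the 5 root markers summed to at most 1.33 FPKM and the 4 shoot meristem markers to at most 0.08 FPKM in any library. The Rubisco small subunit gene RBCS1A was listed at 0 in a pair of Col-0 libraries (replicates 1 and 2), while replicates 3 and 4 had 19509 and 19499.7 FPKM. A value of 0 in these files can thus be a failed estimate, and members at 0 are described as listed at 0. In whole leaves, fewer cells of a type and less RNA per cell cannot be told apart.

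The 57 genes spanned a wide range of levels in Per-1 and came from all 5 chromosomes. The lower Per-1 library had 3.01 FPKM for the lowest gene, 6.26 FPKM for the median gene and 205 FPKM for the highest, the ethylene-responsive transcription factor gene ERF2. In 22 genes it reached 10 FPKM, and in 19 it lay under 5 FPKM. In 7 genes all Col-0 and Aa-0 libraries were listed at 0, and in the same 7 both Col-0×Aa-0 libraries were listed at 0 as well. These were AT1G34090, AT1G63190, AT2G07000, AT3G30700, AT3G62490, AT4G21640 and AT5G41660. All 57 passed the filter on low values, which the Per-1 libraries alone were enough for. The Per-1 libraries differed from each other by more than 1.5 times in 6 of the 57 genes.

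In the RefSeq annotation (TAIR10.1), 55 of the 57 were found, with 19, 10, 6, 8 and 12 on chromosomes 1 to 5. Of these, 43 code for proteins and 12 do not: 6 pseudogenes, 1 transcribed pseudogene, 4 non-coding RNAs and 1 microRNA gene. Genes that do not code for proteins were 21.8% of the annotated members and 2.09% of all annotated genes tested. Gene bodies overlapped another annotated gene in 15 members (27.3%), against 33.1% of all annotated genes tested. The libraries were made with a kit that does not mark the strand, so reads from a member and an overlapping gene cannot be told apart in those 15. Aligning exons to the other genes, 8 members shared at least 95% identity over at least 100 bases with another gene, and their values are uncertain: AT1G11270, AT1G23950, AT1G63380, AT2G04066, AT3G30700, AT3G62490, AT5G28450 and AT5G34871.

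The members nearest to the thresholds were AT2G18600, AT1G23950 and PCR1, whose lower Per-1 library stood 3.0, 3.01 and 3.10 times above the highest Col-0 or Aa-0 library. Just outside were AT5G54710, AT3G61280 and AT5G52760 at 2.98, 2.96 and 2.93 times. On level, AT1G63380, AT4G03450 and AT3G62490 lay just inside with 3.01, 3.06 and 3.07 FPKM, and AT2G05030, AT5G47260 and AT4G29200 just outside with 2.90, 2.87 and 2.68 FPKM.

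**Figure D1:**
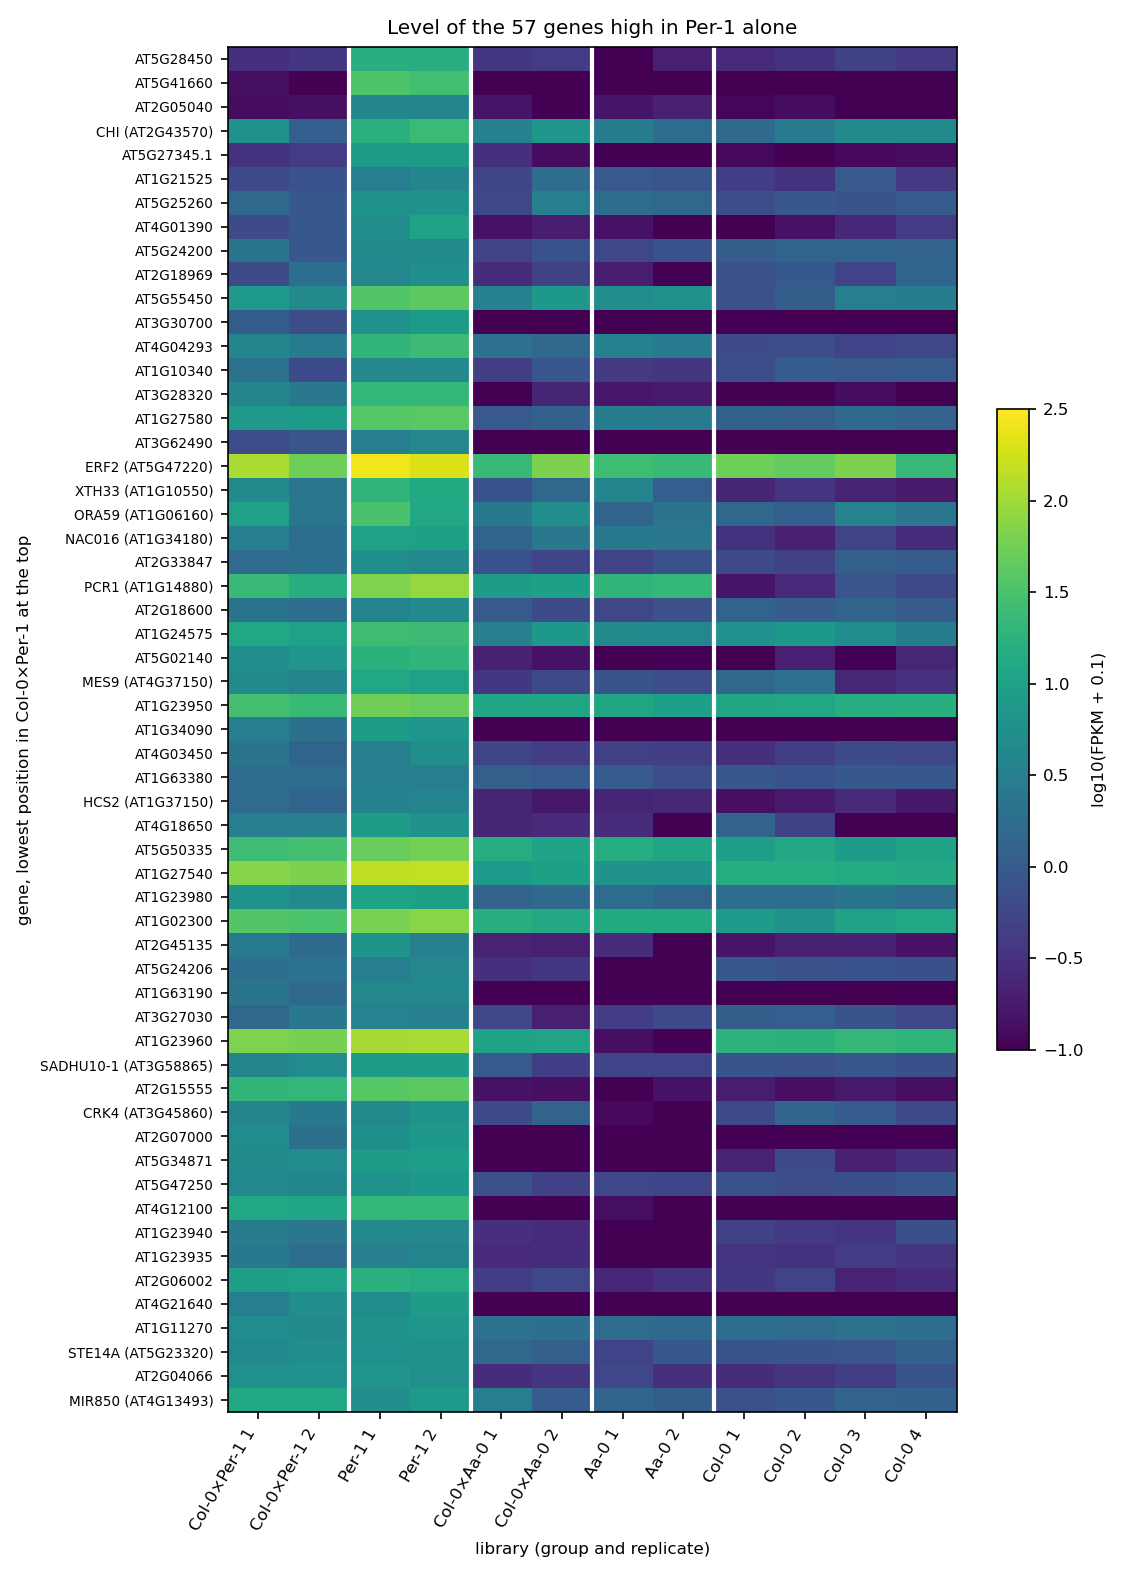
Level of each of the 57 genes, as log10(FPKM + 0.1), in the 12 libraries, with genes ordered by their position in Col-0×Per-1 from lowest (top) to highest (bottom) and libraries on the horizontal axis by group and replicate. The 2 Per-1 columns are bright throughout, which is how the genes were chosen; in the Col-0×Per-1 columns AT5G28450, AT5G41660 and AT2G05040 at the top are as dark as in Col-0, and MIR850 at the bottom is brighter than in Per-1.

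The difference between the hybrids was tested, since neither hybrid was used to choose the genes. Its spread is shared with the parental libraries, which did choose them. The rule also set Per-1 high and both parents of Col-0×Aa-0 low. Neither the p-values nor the direction are therefore fully free of the choice. Of the 57 genes, 34 were higher in Col-0×Per-1 than in Col-0×Aa-0 (limma on log2(FPKM + 1), adjusted p under 0.05 over all 17203 genes tested), while 0.802% of all genes tested were called higher. None was called lower: 0 of 57 passed in that direction, also at an unadjusted p under 0.05, and 1.24% of all genes tested were called lower. The median difference was 1.13 on the log2(FPKM + 1) scale over the 57 genes and -0.13 over all genes tested. With the medians of all tested genes set equal between libraries, 39 were called higher. Both Col-0×Per-1 libraries lay above both Col-0×Aa-0 libraries in 46 of the 57 genes, against 14.95% of all genes tested. The differences of the 34 called genes ran from 0.73 to 4.34, and this scale understates the change of genes at low levels.

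Most of the 57 genes were called against Col-0, and most against Per-1. Against Col-0, 45 were called higher in Col-0×Per-1 (2.66% of all genes tested) and 0 lower (17.3%), with 0 lower also at an unadjusted p under 0.05. Against Per-1, 40 were called lower in Col-0×Per-1 (2.34% of all genes tested) and 0 higher (2.41%), with 1 higher at an unadjusted p under 0.05. The count of 40 was 15 and 18 without Per-1 replicate 1 and 2, 22 without Col-0×Per-1 replicate 2 and 19 with a pseudocount of 0.1. Both contrasts use parental libraries that chose the genes, so their direction was partly set by the choice. In 30 genes the hybrid differed from both parents and lay between them, in 15 it differed from Col-0 only, in 10 from Per-1 only, and in 2 (ERF2 and ORA59) from neither. In Per-1 itself all 57 were called higher than in Col-0 (6.17% of all genes tested) and than in Aa-0 (4.67%), in contrasts the rule used, so nothing is read from them.

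The position of Col-0×Per-1 between its parents was taken on linear FPKM, with 0 at the Col-0 mean and 1 at the Per-1 mean, so that 0.5 is midway. Its median over the 57 genes was 0.336, with a middle range from 0.152 to 0.488. The parental values that scale the position also chose the genes, so its distance from 0.5 may partly follow from the choice. With median-ratio scaling of the libraries, 64 genes met the rule and the median was 0.368. Of the 57, 9 lay under 0.1, 14 from 0.1 to 0.25, 10 from 0.25 to 0.4, 18 from 0.4 to 0.6, 5 from 0.6 to 1 and 1 above 1. The median was 0.369 in Col-0×Per-1 replicate 1 and 0.266 in replicate 2, the shallowest library. The 2 hybrid libraries differed by more than 1.5 times in 20 genes, against 6 for the 2 Per-1 libraries. The rule set thresholds on the lower Per-1 library and none on the hybrid, so that comparison may partly follow from the choice. Without Col-0×Per-1 replicate 1, 14 genes lay under 0.1.

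**Figure D2:**
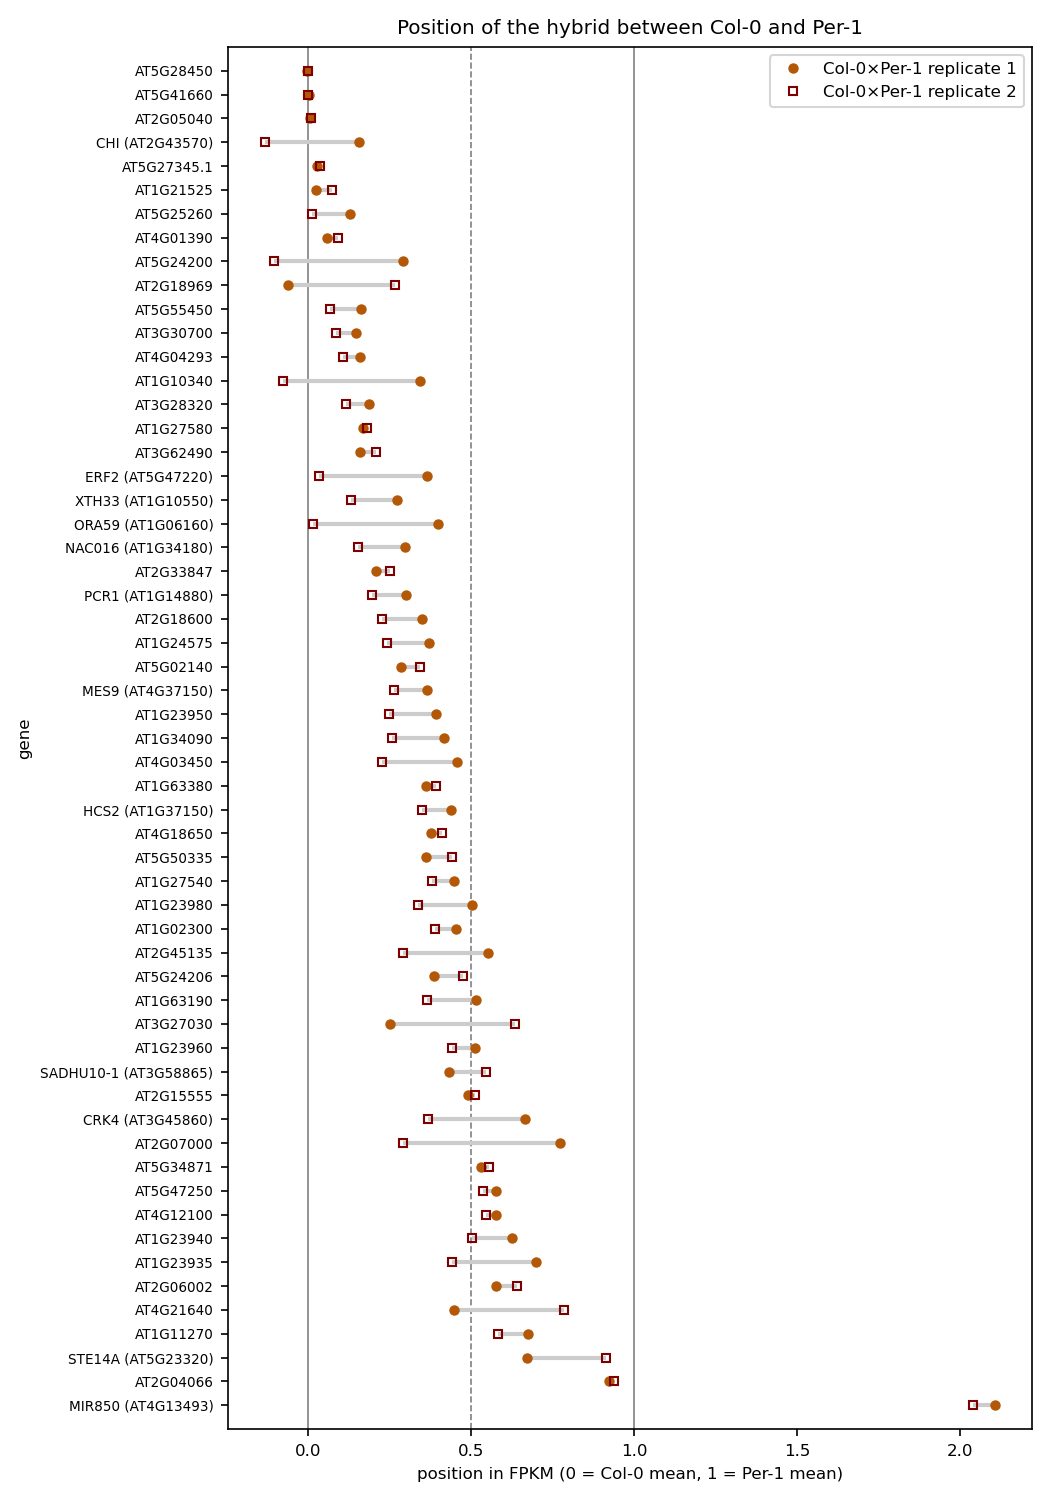
Position of the 2 Col-0×Per-1 libraries between the parents for each of the 57 genes (horizontal axis, no unit; 0 is the Col-0 mean and 1 the Per-1 mean, in FPKM), with a grey bar joining the 2 libraries and a dashed line at 0.5. Most genes lie left of the dashed line, 9 have a mean under 0.1, and MIR850 is the only 1 of the 57 past 1.

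Against the mid-parent of Col-0 and Per-1, 11 genes were called lower in Col-0×Per-1 (2.2% of all genes tested) and 1 was called higher, MIR850 (0.366%). The other 45 were not called, with differences from -1.74 to 0.67 on the log2(FPKM + 1) scale. Of the 57 differences 44 were negative, with a median of -0.28, against a median of -0.14 over all genes tested. The parental values in this contrast also chose the genes, so the count was read only beside these shares. The 11 genes were AT5G41660, AT5G28450, AT5G27345.1, AT2G05040, AT4G04293, AT4G01390, AT3G28320, AT3G30700, AT1G27580, AT3G62490 and AT5G02140. The count of 11 was 3 without either Per-1 library, 5 where the mid-parent was taken as the mean of log2 values, and 17 with Col-0 replicates 3 and 4 alone.

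**Figure D3:**
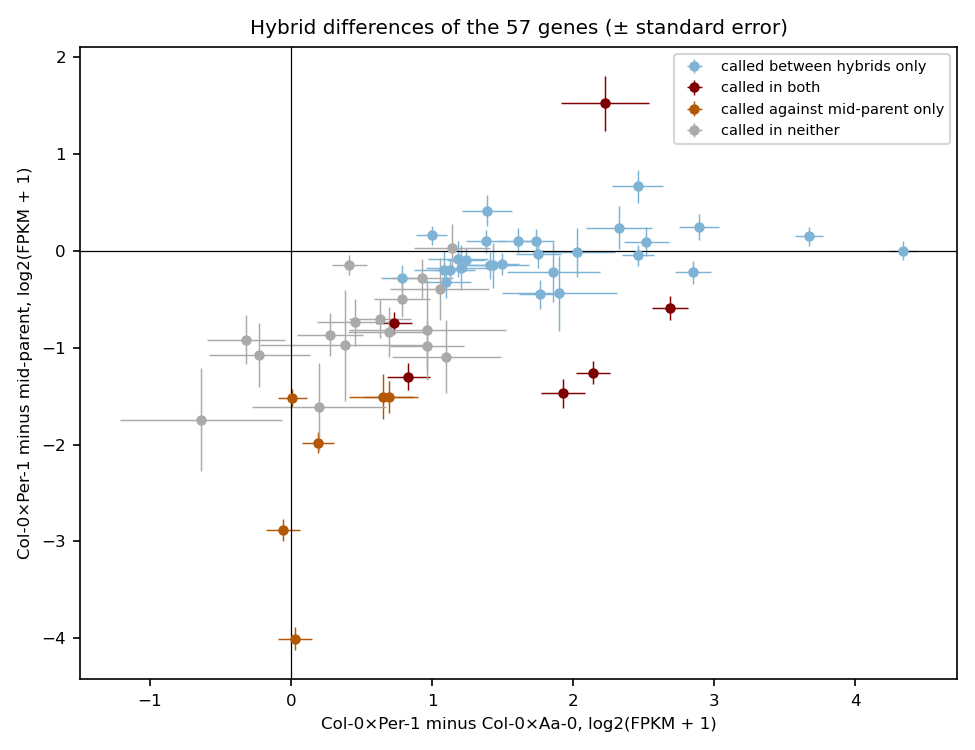
Difference of Col-0×Per-1 from Col-0×Aa-0 (horizontal axis) and from the mid-parent of Col-0 and Per-1 (vertical axis), both in log2(FPKM + 1), for the 57 genes, with bars of 1 standard error. The 6 genes called against the mid-parent only lie below 0 on the vertical axis and between 0 and 1 or just under 0 on the horizontal axis, and the 6 called in both include MIR850 at the top.

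Of the 11 genes called below the mid-parent, 7 were also called above Col-0 in Col-0×Per-1 and 4 were not: AT5G41660, AT5G28450, AT2G05040 and AT4G01390. Differences between groups are given here on the log2(FPKM + 1) scale ± standard error, with limma's p adjusted over all genes tested for those between the hybrids. Differences from the mid-parent or from Col-0 are given as a description, with no p, since the libraries of those parents chose the genes. AT5G41660, which codes for a protein of unknown function, had 0.04 and 0 FPKM in Col-0×Per-1, 34.4 and 27.6 FPKM in Per-1, 0 in both Col-0×Aa-0 libraries, 0 in both Aa-0 libraries, and 0 in all 4 Col-0 libraries. It was thus high in both Per-1 libraries and at or near 0 in the other 10, the hybrid with a Per-1 parent included. Its difference from the mid-parent was -4.01 ± 0.12, and its difference between the hybrids was 0.03 ± 0.12 (adjusted p = 0.924).

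AT5G28450 is annotated as a chlorophyll a/b-binding protein, the family that harvests light for photosynthesis. It had 0.20 and 0.26 FPKM in Col-0×Per-1, 16.0 and 15.7 FPKM in Per-1, 0.26 and 0.30 FPKM in Col-0×Aa-0, 0 and 0.10 FPKM in Aa-0, and 0.17, 0.23, 0.39 and 0.29 FPKM in Col-0. Only the Per-1 libraries were high, and the hybrid libraries lay within the Col-0 range. Its difference from the mid-parent was -2.88 ± 0.12. Over 411 of its 628 exon bases it is 97.6% identical to LHCA2, a photosystem I antenna gene that averaged 5810 FPKM in Col-0×Per-1, 5618 FPKM in Per-1, 5732 FPKM in Col-0×Aa-0, 5439 FPKM in Aa-0 and 4741 FPKM in Col-0. The part of LHCA2 reads in the values of AT5G28450 was not tested.

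AT5G27345.1, which has no entry in the annotation used, had 0.23 and 0.31 FPKM in Col-0×Per-1, 8.01 and 7.99 FPKM in Per-1, 0.20 and 0.03 FPKM in Col-0×Aa-0, 0 in both Aa-0 libraries, and 0.02, 0, 0.02 and 0.03 FPKM in Col-0. Both hybrid libraries lay above the highest Col-0 library, at 0.032 of the way to Per-1, and it was called above Col-0. Its difference from the mid-parent was -1.98 ± 0.11. The pseudogene AT2G05040 had 0.03 and 0.04 FPKM in Col-0×Per-1, 3.88 and 3.98 FPKM in Per-1, 0.06 and 0 FPKM in Col-0×Aa-0, 0.06 and 0.11 FPKM in Aa-0, and 0.01, 0.03, 0 and 0 FPKM in Col-0, and it differed from the mid-parent by -1.52 ± 0.10. The next locus, the pseudogene AT2G05030, missed the level threshold and was likewise highest in Per-1, with 0.09 and 0.12 FPKM in Col-0×Per-1, 2.90 and 3.53 FPKM in Per-1, 0 in both Col-0×Aa-0 and both Aa-0 libraries, and 0, 0, 0 and 0.07 FPKM in Col-0. The neighbours further on, AT2G05025 and AT2G05050, were listed at 0 in every Per-1 and hybrid library.

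Among the other genes called below the mid-parent, the pseudogene AT4G04293 had 3.91 and 2.79 FPKM in Col-0×Per-1, 19.6 and 24.7 FPKM in Per-1, 1.96 and 1.41 FPKM in Col-0×Aa-0, 3.33 and 2.75 FPKM in Aa-0, and 0.54, 0.57, 0.41 and 0.47 FPKM in Col-0, and its difference from the mid-parent was -1.51 ± 0.17. AT4G01390, a TRAF-like protein whose gene overlaps MPK4 on the opposite strand, had 0.56 and 0.82 FPKM in Col-0×Per-1, 5.27 and 10.4 FPKM in Per-1, 0.05 and 0.09 FPKM in Col-0×Aa-0, 0.05 and 0 FPKM in Aa-0, and 0, 0.05, 0.15 and 0.32 FPKM in Col-0. Its 2 Per-1 libraries differed by 1.96 times, and its difference from the mid-parent was -1.5 ± 0.23. AT3G28320, a protein of unknown function, had 3.84 and 2.39 FPKM in Col-0×Per-1, 20.4 and 20.6 FPKM in Per-1, 0 and 0.13 FPKM in Col-0×Aa-0, 0.07 and 0.08 FPKM in Aa-0, and 0, 0, 0.03 and 0 FPKM in Col-0; its difference was -1.47 ± 0.15 from the mid-parent and 1.93 ± 0.16 (adjusted p = 0.000142) from Col-0×Aa-0. The pseudogenes AT3G30700 and AT3G62490 were listed at 0 in every Col-0, Aa-0 and Col-0×Aa-0 library. AT3G30700 had 0.99 and 0.59 FPKM in Col-0×Per-1 and 5.76 and 7.89 FPKM in Per-1, and AT3G62490 had 0.57 and 0.75 FPKM in Col-0×Per-1 and 3.07 and 4.10 FPKM in Per-1.

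MIR850, the gene of the microRNA miR850, was the 1 gene called above the mid-parent. It had 12.4 and 12.03 FPKM in Col-0×Per-1, 5.09 and 7.66 FPKM in Per-1, 3.13 and 0.94 FPKM in Col-0×Aa-0, 1.30 and 0.98 FPKM in Aa-0, and 0.64, 0.78, 1.19 and 1.13 FPKM in Col-0. Both hybrid libraries lay above both Per-1 libraries, at positions of 2.11 and 2.04. It differed from the mid-parent by 1.53 ± 0.28 and from Col-0×Aa-0 by 2.22 ± 0.31 (adjusted p = 0.00479). The call against the mid-parent was lost in 5 of 23 alternative settings. It overlaps the non-coding RNA gene AT4G13495 on the same strand, which averaged 224 FPKM in Col-0×Per-1, 204 FPKM in Per-1, 106 FPKM in Col-0×Aa-0, 68.9 FPKM in Aa-0 and 98.2 FPKM in Col-0. The values are of long RNA over the gene, not of the mature microRNA, and the share of AT4G13495 reads in them was not tested.

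Over all genes tested, 57 of 17203 were members, and family shares are to be read beside that. Among the families that held members, the shares ran from 0.0867% of genes in no named family to 4.26% of ankyrin repeat genes (2 of 47). Tested families without members are not listed. Pseudogenes, a retroposon and RNA genes formed the largest family, with 12 members among the 367 such genes tested (3.27%). In 9 of the 12 the level was higher in Col-0×Per-1 than in Col-0×Aa-0 by the test. The 355 other such genes went both ways, with 104 called higher and 115 lower in Per-1 than in Col-0. Of the same 355, 10 were called higher and 28 lower in Col-0×Per-1 than in Col-0×Aa-0. The non-coding RNA gene AT2G15555 had 19.7 and 20.6 FPKM in Col-0×Per-1, 38.6 and 41.8 FPKM in Per-1, 0.05 and 0.04 FPKM in Col-0×Aa-0, 0 and 0.05 FPKM in Aa-0, and 0.09, 0.04, 0.08 and 0.04 FPKM in Col-0. It was on in Per-1 and its hybrid and near 0 in the other 8 libraries, at a hybrid position of 0.50, and its difference between the hybrids was the largest of the 57, 4.34 ± 0.10 (adjusted p = 2.91e-08). The RNA gene AT2G06002 had 8.98 and 9.96 FPKM in Col-0×Per-1, 16.3 and 14.5 FPKM in Per-1, 0.35 and 0.47 FPKM in Col-0×Aa-0, 0.14 and 0.23 FPKM in Aa-0, and 0.27, 0.43, 0.12 and 0.18 FPKM in Col-0, and its difference between the hybrids was 2.89 ± 0.14 (adjusted p = 3.63e-06). AT5G34871 had 4.64 and 4.82 FPKM in Col-0×Per-1, 7.97 and 9.06 FPKM in Per-1, 0 in both Col-0×Aa-0 libraries, 0 in both Aa-0 libraries, and 0.12, 0.54, 0.11 and 0.21 FPKM in Col-0, at 2.52 ± 0.16 (adjusted p = 2.48e-05) between the hybrids. SADHU10-1 belongs to the Sadhu elements, retroposons known in Arabidopsis for expression that varies between accessions. It had 3.97 and 4.84 FPKM in Col-0×Per-1, 8.33 and 8.29 FPKM in Per-1, 0.89 and 0.35 FPKM in Col-0×Aa-0, 0.40 and 0.40 FPKM in Aa-0, and 0.70, 0.63, 0.79 and 0.61 FPKM in Col-0, a hybrid position of 0.488. AT1G34090, a pseudogene listed at 0 outside Per-1 and its hybrid, had 3.04 and 1.87 FPKM in Col-0×Per-1 and 7.93 and 6.70 FPKM in Per-1. AT1G21525, a transcribed pseudogene, had 0.50 and 0.66 FPKM in Col-0×Per-1, 3.18 and 3.95 FPKM in Per-1, 0.44 and 1.70 FPKM in Col-0×Aa-0, 0.85 and 0.77 FPKM in Aa-0, and 0.34, 0.23, 0.85 and 0.29 FPKM in Col-0, and its difference between the hybrids did not pass, at -0.32 ± 0.28 (adjusted p = 0.571).

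F-box proteins, cullins and RING proteins select or modify proteins for breakdown through the ubiquitin system. They numbered 7 among the 741 such genes tested (0.945%). The 734 others went both ways, with 35 called higher and 109 lower in Per-1 than in Col-0. Of the same 734, 2 were called higher and 5 lower in Col-0×Per-1 than in Col-0×Aa-0. All 7 members were called higher in Col-0×Per-1 than in Col-0×Aa-0, beside 0.802% of all genes tested. The F-box gene AT1G27540 was the highest, with 73.4 and 64.5 FPKM in Col-0×Per-1, 144 and 149.8 FPKM in Per-1, 7.84 and 9.61 FPKM in Col-0×Aa-0, 6.15 and 5.93 FPKM in Aa-0, and 14.7, 14.7, 13.8 and 12.9 FPKM in Col-0. Its groups did not overlap between Per-1, its hybrid and the rest, and the difference between the hybrids was 2.85 ± 0.13 (adjusted p = 1.95e-06). The cullin AT4G12100, a scaffold of ubiquitin ligases, had 12.1 and 11.4 FPKM in Col-0×Per-1, 20.7 and 21.3 FPKM in Per-1, 0 in both Col-0×Aa-0 libraries, 0.04 and 0 FPKM in Aa-0, and 0 in all 4 Col-0 libraries. It was thus on in Per-1 and its hybrid and at or near 0 in the other 8 libraries, at 3.67 ± 0.10 (adjusted p = 5.19e-08) between the hybrids. The F-box gene AT1G11270, the RING genes AT2G45135 and AT1G23980 and the ubiquitin-conjugating gene AT2G18600 had hybrid positions of 0.628, 0.421, 0.419 and 0.288. AT1G11270 overlaps the sugar transporter gene STP1 on the opposite strand, which averaged 161 FPKM in Col-0×Per-1, 236 FPKM in Per-1, 158 FPKM in Col-0×Aa-0, 145 FPKM in Aa-0 and 142 FPKM in Col-0.

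Of 806 transcription factor genes tested, 5 were members (0.620%), and 1 of the 5, AT4G18650, was called higher in Col-0×Per-1 than in Col-0×Aa-0. ERF2 and ORA59 are AP2/ERF factors of the ethylene and jasmonate response. ERF2 had 115 and 52.6 FPKM in Col-0×Per-1, 263 and 205 FPKM in Per-1, 23.7 and 64.5 FPKM in Col-0×Aa-0, 25.7 and 23.2 FPKM in Aa-0, and 52.8, 44.9, 65.3 and 22.2 FPKM in Col-0. The 2 Per-1 libraries were the highest of the 12, but the hybrid libraries differed by more than 2 times and overlapped both Col-0 and Col-0×Aa-0. ORA59 had 9.91 and 2.30 FPKM in Col-0×Per-1, 31.3 and 12.3 FPKM in Per-1, 2.49 and 5.04 FPKM in Col-0×Aa-0, 1.23 and 2.09 FPKM in Aa-0, and 1.42, 1.01, 3.48 and 2.27 FPKM in Col-0. Here the Per-1 libraries differed by 2.54 times and 1 hybrid library lay above the Col-0 range and the other within it. Neither gene passed between the hybrids, with 0.97 ± 0.56 (adjusted p = 0.399) for ERF2 and 0.39 ± 0.60 (adjusted p = 0.764) for ORA59.

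NAC016, a NAC factor known to promote leaf senescence, had 3.13 and 1.72 FPKM in Col-0×Per-1, 10.4 and 9.56 FPKM in Per-1, 1.25 and 2.41 FPKM in Col-0×Aa-0, 2.53 and 2.32 FPKM in Aa-0, and 0.23, 0.11, 0.43 and 0.18 FPKM in Col-0. It was higher in Aa-0 than in Col-0 too, and the hybrids overlapped. AT4G18650, annotated as like a transcription factor, had 3.04 and 3.27 FPKM in Col-0×Per-1, 8.54 and 6.26 FPKM in Per-1, 0.13 and 0.16 FPKM in Col-0×Aa-0, 0.18 and 0 FPKM in Aa-0, and 1.20, 0.38, 0 and 0 FPKM in Col-0, and its difference between the hybrids was 1.86 ± 0.33 (adjusted p = 0.0181), a call lost in 5 of 23 alternative settings. AT2G18969 had 0.53 and 1.82 FPKM in Col-0×Per-1 and 4.07 and 5.31 FPKM in Per-1, with 0.41 to 1.26 FPKM in Col-0.

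Receptors of the immune system gave 2 members. Of 112 NLR genes tested, which code for receptors inside the cell that sense pathogen effectors, 1 was a member (0.893%), AT5G47250. It had 4.15 and 3.90 FPKM in Col-0×Per-1, 6.18 and 7.25 FPKM in Per-1, 0.64 and 0.38 FPKM in Col-0×Aa-0, 0.48 and 0.44 FPKM in Aa-0, and 0.67, 0.58, 0.62 and 0.80 FPKM in Col-0. Both hybrid libraries lay midway, at positions of 0.576 and 0.535, and the difference between the hybrids was 1.74 ± 0.13 (adjusted p = 8.35e-05). Its neighbour AT5G47260, another disease resistance gene, missed the level threshold with 1.89 and 1.53 FPKM in Col-0×Per-1, 2.87 and 3.67 FPKM in Per-1, 0 in all Col-0×Aa-0 and Aa-0 libraries, and 0, 0, 0.02 and 0 FPKM in Col-0. Of the 111 other NLR genes, 21 were called higher and 47 lower in Per-1 than in Col-0. Over all genes tested, 6.17% were higher and 19.6% lower. Among 257 receptor-like kinases and proteins tested, 1 was a member (0.389%), CRK4, a cysteine-rich receptor-like kinase. That share is close to the 57 of 17203 over all genes tested. Of the 256 others in this family, 33 were called higher and 53 lower in Per-1 than in Col-0. CRK4 had 3.83 and 2.47 FPKM in Col-0×Per-1, 4.31 and 6.40 FPKM in Per-1, 0.56 and 1.21 FPKM in Col-0×Aa-0, 0.02 and 0 FPKM in Aa-0, and 0.49, 1.27, 0.90 and 0.49 FPKM in Col-0. It was at or near 0 in Aa-0 and midway in the hybrid, and between the hybrids it did not pass, at 1.14 ± 0.27 (adjusted p = 0.0673). The ankyrin repeat genes AT1G10340 and AT4G03450, 2 of 47 tested, had hybrid positions of 0.133 and 0.341 and did not pass between the hybrids either.

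Enzymes and proteins of the cell wall, defence and hormone turnover were also among the members. Of 136 glycoside hydrolase genes tested, 2 were members (1.47%), CHI and XTH33. Antimicrobial and small secreted peptides gave 2 of 666 (0.300%), AT5G55450 and AT5G02140. Hydrolases and lipases, the family of MES9, gave 2 of 623 (0.321%). The shares of the peptide and the hydrolase family are close to the 57 of 17203 over all genes tested. CHI (AT2G43570), a chitinase, had 5.94 and 1.01 FPKM in Col-0×Per-1, 16.6 and 23.8 FPKM in Per-1, 3.37 and 6.72 FPKM in Col-0×Aa-0, 2.83 and 1.63 FPKM in Aa-0, and 1.48, 2.59, 4.60 and 4.48 FPKM in Col-0. Its hybrid libraries differed by 5.88 times and overlapped every group but Per-1. XTH33, which cuts and rejoins xyloglucan in the cell wall, had 4.56 and 2.28 FPKM in Col-0×Per-1, 19.5 and 13.3 FPKM in Per-1, 0.65 and 1.40 FPKM in Col-0×Aa-0, 3.84 and 1.01 FPKM in Aa-0, and 0.13, 0.24, 0.12 and 0.08 FPKM in Col-0. AT5G55450, of the lipid-transfer and 2S albumin family, had 7.79 and 4.39 FPKM in Col-0×Per-1, 35.3 and 41.7 FPKM in Per-1, 3.34 and 7.30 FPKM in Col-0×Aa-0, 5.29 and 6.13 FPKM in Aa-0, and 0.64, 0.98, 3.07 and 2.97 FPKM in Col-0. Its Per-1 libraries were more than 4 times above every other, and its hybrid position was 0.114. None of these 3 passed between the hybrids. AT5G02140, a thaumatin-like protein, had 5.44 and 6.51 FPKM in Col-0×Per-1, 17.6 and 20.3 FPKM in Per-1, 0.11 and 0.05 FPKM in Col-0×Aa-0, 0 in both Aa-0 libraries, and 0, 0.10, 0 and 0.14 FPKM in Col-0; it passed between the hybrids at 2.69 ± 0.13 (adjusted p = 3.63e-06), and its call against the mid-parent, -0.59 ± 0.13, was lost in 19 of 23 alternative settings, of which 1 turned its sign. MES9, an esterase that can release salicylic acid from its methyl ester, had 4.69 and 3.65 FPKM in Col-0×Per-1, 12.4 and 10.1 FPKM in Per-1, 0.27 and 0.49 FPKM in Col-0×Aa-0, 0.72 and 0.58 FPKM in Aa-0, and 1.38, 1.98, 0.14 and 0.22 FPKM in Col-0. Its 4 Col-0 libraries fell into a higher pair (replicates 1 and 2) and a lower pair (replicates 3 and 4), and its call between the hybrids, 1.90 ± 0.41 (adjusted p = 0.0469), was lost in 12 of 23 alternative settings.

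Of 357 protease and protease inhibitor genes tested, 3 were members (0.840%), and all 3 passed between the hybrids. Of the 354 others, 1 was called higher and 10 lower in Col-0×Per-1 than in Col-0×Aa-0. AT1G02300, a cysteine proteinase, had 36.4 and 32.4 FPKM in Col-0×Per-1, 62.8 and 75.8 FPKM in Per-1, 15.8 and 13.0 FPKM in Col-0×Aa-0, 13.1 and 13.3 FPKM in Aa-0, and 7.84, 6.25, 10.2 and 12.1 FPKM in Col-0, at 1.20 ± 0.25 (adjusted p = 0.0367) between the hybrids, a call lost in 9 of 23 alternative settings. AT4G21640, a subtilase, a family of serine proteases, was listed at 0 outside Per-1 and its hybrid, with 3.0 and 5.26 FPKM in Col-0×Per-1 and 4.88 and 8.53 FPKM in Per-1. AT1G63190, of the cystatin family of protease inhibitors, was likewise listed at 0 there, with 2.15 and 1.52 FPKM in Col-0×Per-1 and 4.15 and 4.20 FPKM in Per-1. In these last 2 genes both hybrid libraries were above 0, at mean positions of 0.616 and 0.440.

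Other members with a named role were spread over the range of positions. PCR1, a membrane protein named for cadmium resistance, had 23.2 and 15.3 FPKM in Col-0×Per-1, 66.3 and 87.0 FPKM in Per-1, 8.59 and 9.78 FPKM in Col-0×Aa-0, 19.3 and 21.4 FPKM in Aa-0, and 0.06, 0.17, 0.74 and 0.49 FPKM in Col-0. It was 1 of 5 members in which both Aa-0 libraries exceeded 2 times the highest Col-0 library, with XTH33, NAC016, AT4G04293 and, at levels under 0.1 FPKM, AT3G28320. STE14A, which methylates prenylated proteins, had 4.24 and 5.47 FPKM in Col-0×Per-1, 5.77 and 6.07 FPKM in Per-1, 1.41 and 1.05 FPKM in Col-0×Aa-0, 0.40 and 0.82 FPKM in Aa-0, and 0.72, 0.72, 0.74 and 1.12 FPKM in Col-0, at a hybrid position of 0.791. HCS2, related to the enzyme that attaches biotin to carboxylases, had 1.56 and 1.26 FPKM in Col-0×Per-1, 3.31 and 3.57 FPKM in Per-1 and at most 0.16 FPKM elsewhere. AT2G04066, a MATE efflux carrier, had 5.64 and 5.72 FPKM in Col-0×Per-1, 6.54 and 5.61 FPKM in Per-1, 0.19 and 0.24 FPKM in Col-0×Aa-0, 0.46 and 0.21 FPKM in Aa-0, and 0.18, 0.25, 0.34 and 0.72 FPKM in Col-0. Its hybrid libraries lay at the Per-1 level, at 0.924 and 0.938, but 357 of its 516 exon bases are identical to AT2G04080, which averaged 8.66 FPKM in Col-0×Per-1, 10.2 FPKM in Per-1, 5.21 FPKM in Col-0×Aa-0, 7.84 FPKM in Aa-0 and 3.79 FPKM in Col-0. AT5G25260, a membrane protein of the flotillin type, and AT1G24575 lay at 0.069 and 0.305, and AT1G63380, a Rossmann-fold enzyme, at 0.377. AT1G63380 overlaps AT1G63390 on the opposite strand. That gene averaged 11.84 FPKM in Col-0×Per-1, 22.17 FPKM in Per-1, 4.495 FPKM in Col-0×Aa-0, 9.81 FPKM in Aa-0 and 0.3625 FPKM in Col-0. The share of AT1G63390 reads in the values of AT1G63380 was not tested.

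Proteins of unknown function made up 8 members among 1410 tested (0.567%). Of the 1402 others, 16 were called higher and 21 lower in Col-0×Per-1 than in Col-0×Aa-0. Of the 8 members, 6 passed between the hybrids. Besides AT5G41660 and AT3G28320, the highest were AT1G23960, AT1G23950 and AT5G50335. AT5G50335 had 25.9 and 29.5 FPKM in Col-0×Per-1, 50.1 and 58.0 FPKM in Per-1, 14.8 and 10.49 FPKM in Col-0×Aa-0, 14.5 and 11.2 FPKM in Aa-0, and 9.11, 12.7, 8.14 and 10.46 FPKM in Col-0, with a hybrid position of 0.40 and 1.09 ± 0.22 (adjusted p = 0.0348) between the hybrids, a call lost in 7 of 23 alternative settings. AT2G07000 was listed at 0 outside Per-1 and its hybrid and had 4.86 and 1.83 FPKM in Col-0×Per-1 and 5.40 and 7.19 FPKM in Per-1. AT3G27030 and AT2G33847 had hybrid positions of 0.442 and 0.231.

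Some members lay side by side. In a run on chromosome 1, AT1G23935, AT1G23940, AT1G23950, AT1G23960 and AT1G23980 were members, with 2 identifiers between the last pair. AT1G23960 and AT1G23950 share a domain of unknown function (DUF626). AT1G23960 had 66.3 and 59.9 FPKM in Col-0×Per-1, 108 and 115 FPKM in Per-1, 10.4 and 10.8 FPKM in Col-0×Aa-0, 0.04 and 0 FPKM in Aa-0, and 18.1, 17.9, 21.0 and 19.4 FPKM in Col-0. The order of its groups was Per-1, then the hybrid midway, then Col-0, then Col-0×Aa-0, with Aa-0 at or near 0. AT1G23950 had 28.9 and 23.4 FPKM in Col-0×Per-1, 55.1 and 48.9 FPKM in Per-1, 11.6 and 11.6 FPKM in Col-0×Aa-0, 11.5 and 9.28 FPKM in Aa-0, and 11.9, 12.3, 15.3 and 16.3 FPKM in Col-0. Outside Per-1 and its hybrid all libraries stood between 9.28 and 16.3 FPKM, Aa-0 included.

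AT1G23935, named for an apoptosis inhibitory protein domain, overlaps AT1G23950 on the opposite strand and had 2.5 and 1.67 FPKM in Col-0×Per-1, 3.26 and 3.68 FPKM in Per-1, 0.16 and 0.19 FPKM in Col-0×Aa-0, 0 in both Aa-0 libraries, and 0.24, 0.23, 0.30 and 0.24 FPKM in Col-0. AT1G23940 had 2.86 and 2.38 FPKM in Col-0×Per-1, 4.40 and 4.31 FPKM in Per-1, 0.20 and 0.17 FPKM in Col-0×Aa-0, 0 in both Aa-0 libraries, and 0.38, 0.29, 0.24 and 0.61 FPKM in Col-0, and the RING gene AT1G23980 had 5.94 and 4.60 FPKM in Col-0×Per-1, 10.54 and 9.55 FPKM in Per-1, 1.22 and 1.47 FPKM in Col-0×Aa-0, 1.62 and 1.25 FPKM in Aa-0, and 1.75, 1.75, 2.15 and 1.63 FPKM in Col-0. All 5 passed between the hybrids, with differences from 1.10 to 2.46, and their hybrid positions ran from 0.321 to 0.570. Within the run, AT1G23970, another DUF626 gene 90.3% identical to AT1G23950 over 807 bases, went the other way: it had 0.86 and 0.85 FPKM in Col-0×Per-1, 0 in both Per-1 libraries, 3.1 and 2.11 FPKM in Col-0×Aa-0, 3.45 and 2.45 FPKM in Aa-0, and 1.57, 1.55, 1.55 and 1.53 FPKM in Col-0.

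**Figure D4:**
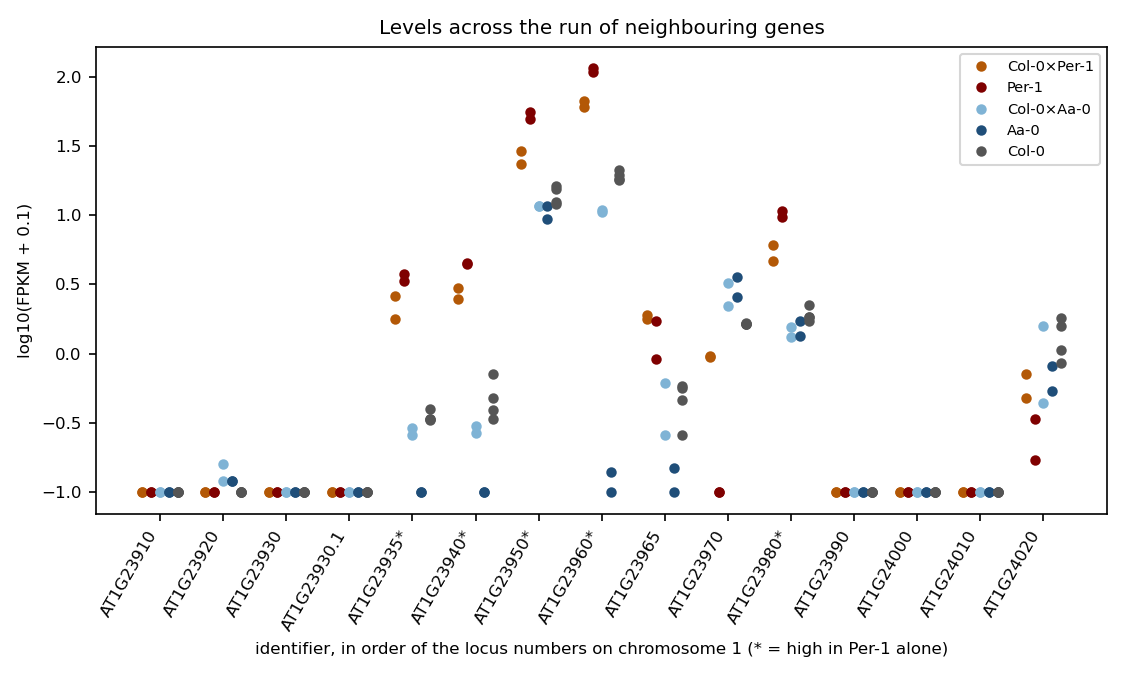
Level of the identifiers from AT1G23910 to AT1G24020 in the order of their locus numbers (horizontal axis), as log10(FPKM + 0.1) on the vertical axis, with 1 point per library coloured by group; a point at -1 is listed at 0. The 5 starred members have Per-1 on top and Col-0×Per-1 next, whereas AT1G23970 has Per-1 at 0 and the 2 ends of the run are at 0 or low in all groups.

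The F-box genes AT1G27540 and AT1G27580 share the domain DUF295 and 93.2% of 1160 aligned exon bases. AT1G27580 had 7.51 and 7.96 FPKM in Col-0×Per-1, 37.8 and 39.5 FPKM in Per-1, 0.86 and 1.10 FPKM in Col-0×Aa-0, 2.83 and 2.66 FPKM in Aa-0, and 1.12, 1.06, 1.48 and 1.17 FPKM in Col-0. Its hybrid level was 0.174 of the way to Per-1, against 0.413 for AT1G27540, and its difference was -1.26 ± 0.12 from the mid-parent and 2.14 ± 0.12 (adjusted p = 1.13e-05) from Col-0×Aa-0. Of the 4 identifiers between them, AT1G27570, a kinase family gene, had 1.92 and 2.12 FPKM in Col-0×Per-1, 4.46 and 4.68 FPKM in Per-1, 0.91 and 0.83 FPKM in Col-0×Aa-0, 2.59 and 2.10 FPKM in Aa-0, and 0 in all 4 Col-0 libraries. AT5G24200, a hydrolase gene, and the non-coding RNA gene AT5G24206 were separated by 1 identifier. AT5G24200 had 2.17 and 0.80 FPKM in Col-0×Per-1, 4.63 and 4.61 FPKM in Per-1, 0.43 and 0.66 FPKM in Col-0×Aa-0, 0.48 and 0.66 FPKM in Aa-0, and 0.99, 1.23, 1.23 and 1.19 FPKM in Col-0, with its hybrid libraries on both sides of Col-0. AT5G24206 had 1.80 and 2.06 FPKM in Col-0×Per-1, 3.07 and 4.10 FPKM in Per-1, 0.21 and 0.27 FPKM in Col-0×Aa-0, 0 in both Aa-0 libraries, and 0.81, 0.64, 0.66 and 0.62 FPKM in Col-0, and it passed between the hybrids with 1.24 ± 0.13 (adjusted p = 0.000805). ERF2 and the NLR gene AT5G47250 had 5 identifiers between them, and 2 of these, ERF5 and NUDT8, averaged 16.2 and 18.9 FPKM in Col-0×Per-1, 39.3 and 36.7 FPKM in Per-1, 17.2 and 24.9 FPKM in Col-0×Aa-0, 6.71 and 17.9 FPKM in Aa-0, and 20.1 and 34.3 FPKM in Col-0.

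Col-0×Aa-0 is the hybrid without a Per-1 parent, and its contrast with Col-0 uses libraries that chose the genes as low, so its calls are given as a description. Against Col-0, 3 were called higher (1.13% of all genes tested) and 2 lower (1.17%). Without Col-0×Aa-0 replicate 2, 1 was called higher, and without Col-0×Aa-0 replicate 1, 1 was called lower. PCR1, NAC016 and AT4G04293 were higher, with differences of 2.93 ± 0.23, 1.17 ± 0.20 and 0.84 ± 0.15, and all 3 were also above Col-0 in Aa-0. AT1G23960 and AT1G27540 were lower, with differences of -0.79 ± 0.10 and -0.63 ± 0.11, and both were below Col-0 in Aa-0.

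Immune pathways around these families were examined through lists of well-known genes. Of 28 tested genes of salicylic acid and immune regulation, 9 were higher and 0 lower in Per-1 than in Col-0, beside 6.17% and 19.6% of all genes tested, and the median difference was 0.66. EDS1, a hub of salicylic acid signalling, averaged 11.2 ± 1.99 FPKM in Col-0×Per-1, 22.5 ± 3.53 FPKM in Per-1 and 8.90 ± 1.5 FPKM in Col-0 (SD, n = 2, 2 and 4). WRKY70, a transcription factor that acts on salicylic acid signalling, averaged 148 ± 70.5 FPKM in Col-0×Per-1, 191 ± 12.1 FPKM in Per-1 and 42.8 ± 28.9 FPKM in Col-0. Between the hybrids limma called 0 of the 28 in either direction, beside 0.802% higher and 1.24% lower of all genes tested. At an unadjusted p under 0.05 limma called 4 higher and 3 lower, with no share over all genes to set beside them.

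Of 9 tested cysteine-rich receptor kinases, the group of CRK4, 4 were higher and 0 lower in Per-1 than in Col-0: CRK4, CRK5, CRK15 and CRK45. Over all genes tested, 6.17% were higher and 19.6% lower. Against Aa-0, 3 of the 9 were higher and 0 lower in Per-1, beside 4.67% and 5.29% of all genes tested. CRK5 averaged 1.535 FPKM in Aa-0 and 1.08 FPKM in Per-1. CRK4 is itself a member, so its rise was set by the choice. All 3 tested wall-associated kinases, WAK1, WAK2 and WAK3, were higher in Per-1 than in Col-0. Only 1 of the 3 was called higher in Per-1 than in Aa-0, and 0 lower. WAK1 averaged 58.7 FPKM in Per-1, 30.8 FPKM in Aa-0 and 14.9 FPKM in Col-0. WAK3 averaged 1.775 FPKM in Per-1, 2.76 FPKM in Aa-0 and 0.28 FPKM in Col-0, and WAK2 averaged 0.02 FPKM in Aa-0. WAK2 averaged 30.2 ± 1.52 FPKM in Col-0×Per-1, 37.3 ± 4.78 FPKM in Per-1 and 13.2 ± 7.29 FPKM in Col-0. Of 11 tested genes of camalexin and indolic defence, 1 was higher in Per-1 than in Col-0, CYP79B3, and 0 were lower. In Col-0×Per-1 limma called 2, CYP79B2 and GGP1, under the mid-parent, beside 2.2% of all genes tested. CYP79B2 averaged 9.11 ± 1.90 FPKM in Col-0×Per-1, 23.9 ± 8.44 FPKM in Per-1 and 17.5 ± 2.38 FPKM in Col-0. Between the hybrids limma called 0 of these 9, 3 and 11 genes, beside 0.802% higher and 1.24% lower of all genes tested. At such shares few calls can be found in sets this small. At an unadjusted p under 0.05 limma called 3, 1 and 0 higher and 1, 1 and 2 lower, with no share over all genes to set beside them.

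By the same thresholds, but without leaving out the 8 named identifiers, 39 genes were high in Aa-0 alone and 45 were high in both Aa-0 and Per-1. Their positions are set side by side with no test, since all hybrids share the Col-0 parent. The median position of the 57 genes in Col-0×Per-1 was 0.336, with 9 of 57 (15.8%) under 0.1. Genes high in Aa-0 alone had a median of 0.440 in Col-0×Aa-0, with 0 of 39 under 0.1 and a lowest position of 0.101. Genes high in both had a median of 0.341 in Col-0×Per-1, with 16 of 45 (35.6%) under 0.1, and of 0.371 in Col-0×Aa-0, with 11 of 45 (24.4%) under 0.1.

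**Figure D5:**
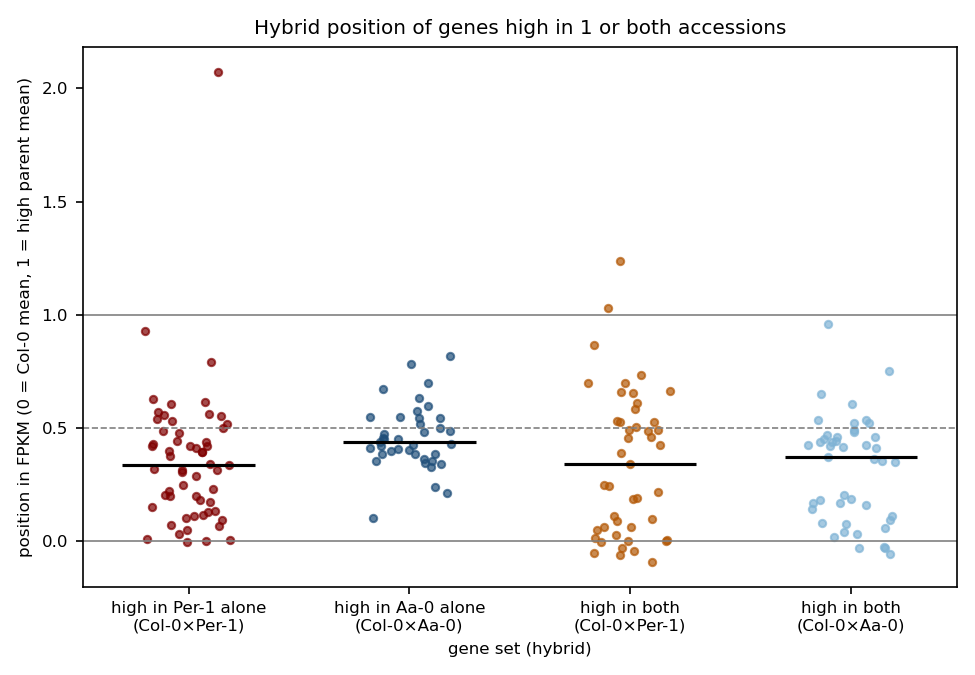
Position of the hybrid between Col-0 (0) and the high parent (1) on linear FPKM for genes high in Per-1 alone (57 genes), in Aa-0 alone (39) and in both (45, shown for each hybrid), with 1 point per gene and a bar at the median. The genes high in Per-1 alone run from -0.003 to 2.07 with a median of 0.336, and the genes high in Aa-0 alone from 0.101 to 0.816 with a median of 0.440.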

How the data were processed

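Per the labels' protocols, RNeasy columns were used for first-leaf RNA and the TruSeq RNA v2 kit for libraries. The values are FPKM as deposited by the authors, to 2 decimals. The tools listed in the submitters' processing notes are Cufflinks 2.0.2, TopHat, TopHat2 2.0.8b and edgeR 3.12.0, with genome build TAIR10, and the role of each is not given in the sources used here. That build is the Col-0 genome, and its effect on reads of Per-1 alleles was not tested. Samples were grouped by their labels, with Per-1 and 4 Col-0 libraries, although Ler-1 and duplicates stand in the text on the design.

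With R 4.3.3 and limma 3.58.1, a group-means model of all 12 libraries (7 residual degrees of freedom, eBayes with trend) was fitted to log2(FPKM + 1). Only the 17203 genes that reached 1 FPKM in 2 or more libraries entered. A change was called where the p, adjusted by Benjamini-Hochberg over these genes, was under 0.05. For the mid-parent, fitted parental values were averaged on the linear scale, and the delta method gave its standard error. The fitting code was tested on simulated data. Relative depth was the most frequent ratio of values from 0.08 to 2 FPKM to those of Col-0 replicate 1, over genes above 0 in at most 8 libraries. Gene names, biotypes and overlaps came from RefSeq (TAIR10.1), and no coordinates are given. Exons were aligned with BLAST 2.17.0, at nucleotide level. Tables and plots were made with Python 3.11.15 (pandas 2.3.3, matplotlib 3.10.9).

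The members, families and lists were chosen with earlier results of these data known, and families were refined after the members' RefSeq descriptions were seen. By rule, 36 members are named: the 12 highest in Per-1, those called furthest from the mid-parent and between the hybrids (6 each way), the 3 highest of each family with 3 or more members, those nearest to the thresholds, and neighbours. Other members are named for their role or count, after their values were seen. Alternatives covered the pseudocount, filters, scaling, Col-0 pairs, each library left out, a replicate block, overlapping genes and the thresholds of the rule.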

Additional observations from a re-analysis of the deposited data

Results flagged for a closer look

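In 2 of the 36 members named by rule, 1 of the 4 Col-0 libraries stood apart from the other 3. AT1G23935 had 0.30 FPKM in Col-0 replicate 3, against 0.23 to 0.24 FPKM in the other Col-0 libraries. AT5G24200 had 0.99 FPKM in Col-0 replicate 1, against 1.19 to 1.23 FPKM in the others. Chance gives about 1 such case in 20 groups, and 31 of the 36 could be examined, since the rest had equal values in all Col-0 libraries. Both gaps are small beside the Per-1 values of these genes, which were 3.26 and 3.68 FPKM for AT1G23935 and 4.63 and 4.61 FPKM for AT5G24200.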

How the results depend on the processing

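Of the gene values recomputed under alternatives, 947 kept direction and side of the threshold, 91 lost the call and 1 turned: AT5G02140 against the mid-parent was 0.60 with the parents' log2 values averaged. With that mid-parent, 13 members were higher and 5 lower, against 1 and 11. The 57 members became 108 at a fold of 2, 33 at a fold of 5, 100 at 1 FPKM and 22 at 10 FPKM, and those at a position under 0.1 became 23, 5, 23 and 3, against 9. A pseudocount of 0.1 gave 0 higher and 7 lower than the mid-parent and 19 lower than Per-1, against 40. Col-0 replicates 1 and 2 alone gave 2 above the mid-parent and 5 members higher in Col-0×Aa-0 than in Col-0, against 3; replicates 3 and 4 alone gave 2 above and 17 below the mid-parent. Without genes that overlap another, 0 were above it. Leaving out each library in turn gave 7 to 14 members under 0.1, 0 to 2 above and 3 to 12 below the mid-parent, 15 to 40 lower than Per-1, 1 to 3 higher and 1 to 2 lower in Col-0×Aa-0 than in Col-0, and 24 to 34 higher in Col-0×Per-1 than in Col-0×Aa-0. Where this left 1 library in a group, it was assumed to vary like the other groups. With the medians of all tested genes set equal, an alternative chosen after seeing the data, the count between the hybrids was 39.

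The labels give shared replicate numbers but do not say that they pair libraries, and same-numbered deviations correlated at -0.585 between the hybrids. With the replicate block 36 members were higher in Col-0×Per-1 than in Col-0×Aa-0, 0 above the mid-parent and 5 higher in Col-0×Aa-0 than in Col-0. With the Col-0×Aa-0 numbers crossed, also chosen after seeing the data, these counts were 40, 2 and 5, and 4 were lower in Col-0×Aa-0 than in Col-0. Depth is not recorded in FPKM, so no limit can be set on a value listed at 0, and 2 libraries in a group limit each estimate of spread.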
